A study of Arabidopsis thaliana with 6 samples.

Results

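The genes described are 10 B-box (BBX) genes of light response in Arabidopsis thaliana: BBX14 (AT1G68520), BBX15 (AT1G25440), BBX16 (AT1G73870), BBX17 (AT1G49130), BBX20 (AT4G39070), BBX28 (AT4G27310), BBX29 (AT5G54470), BBX30 (AT4G15248), BBX31 (AT3G21890) and BBX32 (AT3G21150). They were found by locus code. All 10 had a probe set, and they are 10 of the 32 B-box genes and of the 27241 genes tested. Transcripts were measured on 1 array per sample in whole seedlings aged 17 days, 3 samples of the accession Col-0, the wild type, and 3 of the mutant naa20-1. Per the labels' protocols both genotypes grew without further treatment on 1x MS medium under short days (8.5 h of light, 100 µE). By the design text, the catalytic subunit of NatB is depleted in naa20-1. NatB adds acetyl groups to the N-termini of many proteins. How the allele changes the gene, how many plants made up a sample and the hour of harvest are details not given in the sources used. Values are log2 expression after RMA, which corrects the background, equalises the arrays by quantiles and gives 1 value per probe set. The number of arrays limits the precision.

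B-box proteins carry 1 or 2 zinc-binding B-boxes that bind other proteins, and some also carry a CCT domain, which takes part in contacts with DNA and nuclear partners. Many act beside the bZIP factor HY5 in de-etiolation, the change from growth in darkness to growth in light, and several are degraded through the ubiquitin ligase COP1. BBX14 to BBX17 hold 1 B-box and a CCT domain. BBX20 holds 2 B-boxes and no CCT domain, and BBX28 to BBX32 hold 1 B-box and no CCT domain. The short proteins BBX31 and BBX30, also called miP1a and miP1b, are microproteins, that is, little more than the B-box. They bind the flowering factor CONSTANS together with the corepressor TOPLESS. In Arabidopsis HY5, aided by BBX28 and BBX29, is known to hold down BBX30 and BBX31.

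Setting naa20-1 against Col-0 asks where these transcripts lie in seedlings short of NatB. The 5 members with 1 B-box and no CCT domain were all lower in naa20-1, by 0.42 to 1.04 on the log2 scale. Of the 4 CCT-domain members BBX14 was higher by 0.90 and BBX16 lower by 0.63, while BBX15 and BBX17 were higher by 0.22 and 0.49 with groups that overlapped. BBX20 was higher by 0.33. The members were selected on values of this same comparison, the naa20-1 minus Col-0 differences, so their differences are given as a description and no test is drawn from them. Each difference is naa20-1 minus Col-0 with the moderated standard error (SE) of the fit over all genes, and group values are means ± SD over 3 arrays. The labels do not say whether the samples of a group grew as separate cultures, so tests and SEs cover the spread between these samples alone, and that spread may be technical.

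In that fit (limma, Benjamini-Hochberg adjustment over the 27241 genes, called at an adjusted p under 0.05), 2 of the 10 members were called, BBX14 as higher and BBX30 as lower, and 1.15% of all genes were called. The share called was 0.382% for higher and 0.767% for lower genes. The 3 values of one group lay wholly above those of the other in 8 of the 10 members, in 2 as higher and in 6 as lower. Over all genes this share was 21.0%, 10.6% as higher and 10.5% as lower. Both calls were lost when naa20-1 replicate 2 or any single Col-0 sample was left out, which left 0 members called, and both held without naa20-1 replicate 1 or 3. Because the members were selected on these differences, their counts were bound to exceed the shares over all genes. The counts and calls of the members are therefore a description and no test of them.

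One sample stood apart for these genes. In all 10 members naa20-1 replicate 3 was the mutant sample furthest from the Col-0 mean, against 40.5% of all genes. The median absolute distance of the 10 members from the Col-0 mean was 0.45, 0.36 and 0.98 in replicates 1, 2 and 3. That of all genes was 0.14, 0.14 and 0.16. As the members were selected on their differences from Col-0, distances above those of all genes were bound to appear. The values of most members also moved together within the groups, so the 10 are not independent and their count is a description. Without replicate 3 all 10 differences kept their sign, with BBX30 at -0.86, BBX29 at -0.81, BBX14 at 0.79, BBX32 at -0.62, BBX16 at -0.45, BBX31 at -0.34, BBX20 at 0.29, BBX28 at -0.22, BBX15 at 0.10 and BBX17 at 0.08.

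**Figure D1:**
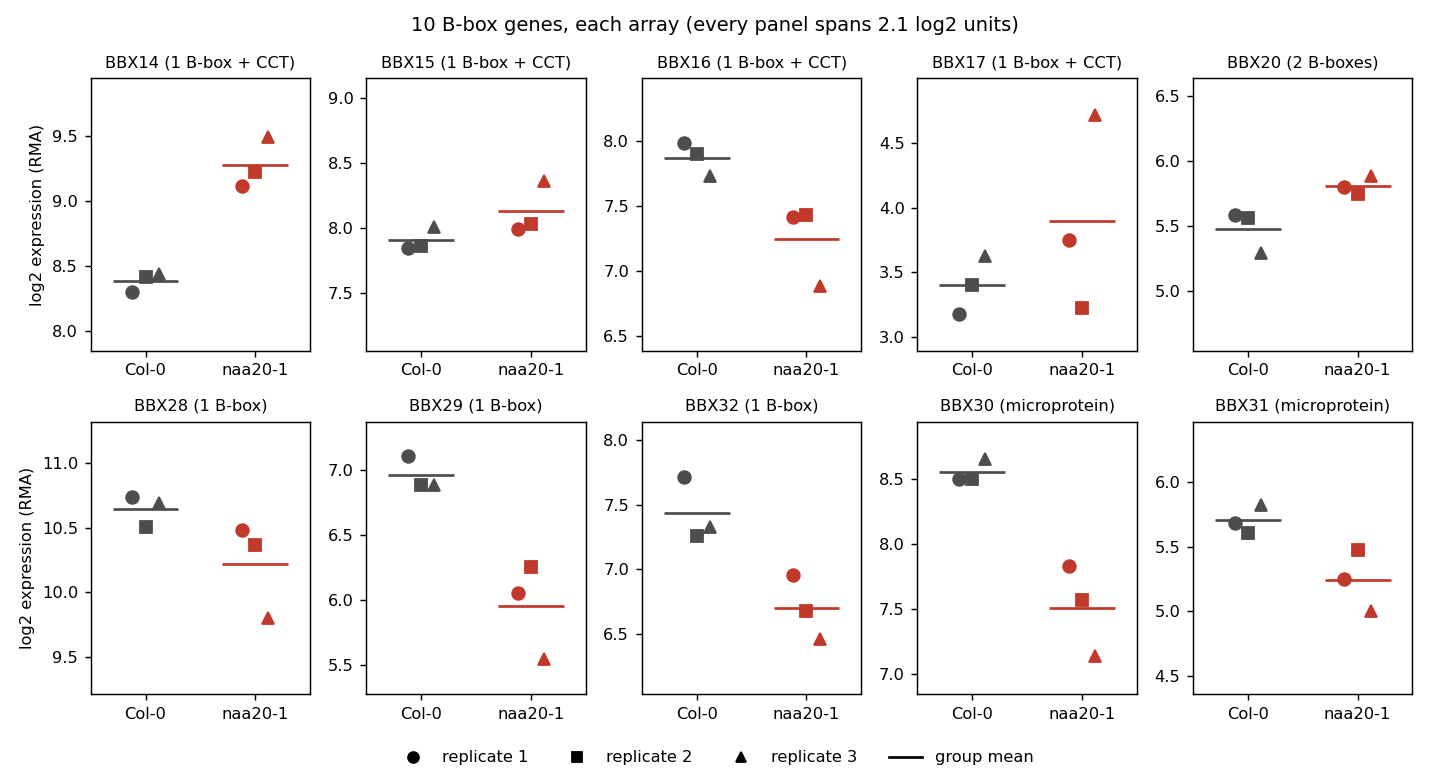
Log2 expression (RMA) of the 10 B-box genes on each array, Col-0 in grey and naa20-1 in red, with marker shape for the replicate and a line for the group mean. Every panel spans the same number of log2 units, and the groups overlap in BBX15 and BBX17.

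Among the CCT-domain members, BBX14, known from work on leaf senescence under nitrogen shortage and darkness, differed most. Its values were 8.30, 8.41 and 8.44 in Col-0 and 9.11, 9.23 and 9.50 in naa20-1. All 3 mutant samples lay above all 3 wild-type samples, with a gap of 0.68 between the groups. The means were 8.38 ± 0.07 and 9.28 ± 0.20, a difference of 0.90 (SE 0.12), or 1.86-fold.

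BBX16, also called COL7 and known from work on shade and on signals from the chloroplast, lay the other way. Its values were 7.98, 7.90 and 7.73 in Col-0 and 7.41, 7.43 and 6.88 in naa20-1. The groups did not overlap, and naa20-1 replicate 3 was the lowest sample. The difference was -0.63 (SE 0.16), or 1.55-fold lower, which was further below 0 than that of the microprotein BBX31.

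BBX15 stood at 7.84, 7.86 and 8.01 in Col-0 and at 7.99, 8.03 and 8.36 in naa20-1. The lowest mutant sample lay below the highest wild-type sample. The difference was 0.22 (SE 0.12), and 0.10 without naa20-1 replicate 3. BBX17, which binds CONSTANS and delays flowering, stood at 3.18, 3.41 and 3.63 in Col-0 and at 3.75, 3.22 and 4.71 in naa20-1. Its difference was 0.49 (SE 0.34), and 0.08 without naa20-1 replicate 3. The mean of BBX17 over the 6 arrays lay below the table's 25th percentile, 3.72, so its signal may be background.

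BBX20, also called BZS1, promotes de-etiolation and is repressed by the brassinosteroid factor BZR1. It stood at 5.59, 5.56 and 5.29 in Col-0 and at 5.80, 5.75 and 5.88 in naa20-1. The groups lay apart by 0.16, and the difference was 0.33 (SE 0.11), or 1.26-fold. BZR1 itself had means of 7.84 and 7.78, and its difference of -0.06 (SE 0.08) did not pass the test (limma, adjusted p = 0.778).

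BBX28, BBX29 and BBX32, the members with 1 B-box that are not called microproteins, were lower in all 3 naa20-1 samples. BBX28, which binds HY5 and restrains de-etiolation, stood at 10.73, 10.50 and 10.69 in Col-0 and at 10.49, 10.36 and 9.80 in naa20-1. The groups were only 0.02 apart. The difference was -0.42 (SE 0.18), and -0.22 without naa20-1 replicate 3.

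BBX29 stood at 7.11, 6.89 and 6.88 in Col-0 and at 6.05, 6.25 and 5.54 in naa20-1. Every mutant sample lay at least 0.63 below the lowest wild-type sample. The means were 6.96 ± 0.13 and 5.95 ± 0.37, and the difference was -1.01 (SE 0.18), or 2.02-fold lower.

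BBX32, a repressor that binds BBX21 and so limits HY5 action, stood at 7.72, 7.26 and 7.33 in Col-0 and at 6.96, 6.68 and 6.46 in naa20-1. The gap between the groups was 0.30. The difference was -0.73 (SE 0.17), or 1.66-fold lower.

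Both microproteins were lower. BBX30 stood at 8.50, 8.50 and 8.65 in Col-0 and at 7.83, 7.57 and 7.13 in naa20-1. The groups lay 0.67 apart, and naa20-1 replicate 3 was again the lowest sample. The means were 8.55 ± 0.09 and 7.51 ± 0.35, and the difference of -1.04 (SE 0.17), or 2.06-fold lower, was the furthest below 0 among the 10 members.

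BBX31, which also takes part in tolerance of ultraviolet light, stood at 5.68, 5.60 and 5.82 in Col-0 and at 5.25, 5.47 and 5.005 in naa20-1. The groups lay 0.13 apart, and the difference was -0.46 (SE 0.13), or 1.38-fold lower.

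The CCT-domain members were set against the microproteins by the mean difference of BBX14 to BBX17 minus that of BBX30 and BBX31. The means were 0.25 and -0.75, which put the CCT-domain members 1.00 above the microproteins. On the single arrays this contrast lay 0.76, 0.70 and 1.53 above its Col-0 mean in naa20-1 replicates 1, 2 and 3, and the Col-0 samples lay at -0.03, 0.08 and -0.05. The 3 mutant values lay above all wild-type values, and without replicate 3 the contrast was 0.73. With all 5 members of 1 B-box and no CCT domain in place of the microproteins it was 0.98. The mean hides a split within the CCT class, whose members ran from -0.63 for BBX16 to 0.90 for BBX14, so the class did not lie on one side. No test is given, since the members were chosen with these values known.

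The family as a whole has 5 structure groups, and the members take all of group III (1 B-box and CCT), 5 of 7 genes of group V (1 B-box, no CCT) and 1 of 8 of group IV (2 B-boxes, no CCT). Ordered by absolute difference, the first 8 of the 32 genes were members, BBX15 and BBX20 followed lower down, and the largest among the 22 others was 0.37. The members were selected on these differences, so this order follows from the selection and is no result about the family. Among the 22 other B-box genes 0 were called, 3 had an unadjusted p under 0.05 in limma, and the differences ran from -0.37 to 0.30 with a median of -0.03. The median over all genes tested was 0.01, and 14.2% of all genes had an unadjusted p under 0.05. Groups were free of overlap in 5 of the 22 (22.7%), near the 21.0% of all genes.

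In group V neither of the remaining genes was called. BBX27 differed by 0.30 (SE 0.15), with groups that overlapped. BBX26, whose signal lay below the table's 25th percentile, stood near 0, at 0.01 (SE 0.12). In group IV the others ran from -0.37 for BBX25, a repressor of HY5 action, to 0.11. BBX21 and BBX22, which promote de-etiolation with HY5, differed by -0.04 (SE 0.10) and 0.01 (SE 0.12).

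In groups I and II, the CONSTANS-like genes with 2 B-boxes and a CCT domain, the medians were -0.18 over 6 genes and 0.15 over 7. BBX4 (COL3) and BBX2 (COL1) had the smallest p among the 22, with differences of -0.27 (SE 0.09, limma adjusted p = 0.232) and -0.31 (SE 0.13, limma adjusted p = 0.319). CONSTANS itself, BBX1 and the partner of the microproteins, had means of 3.48 and 3.61, below the table's 25th percentile.

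**Figure D2:**
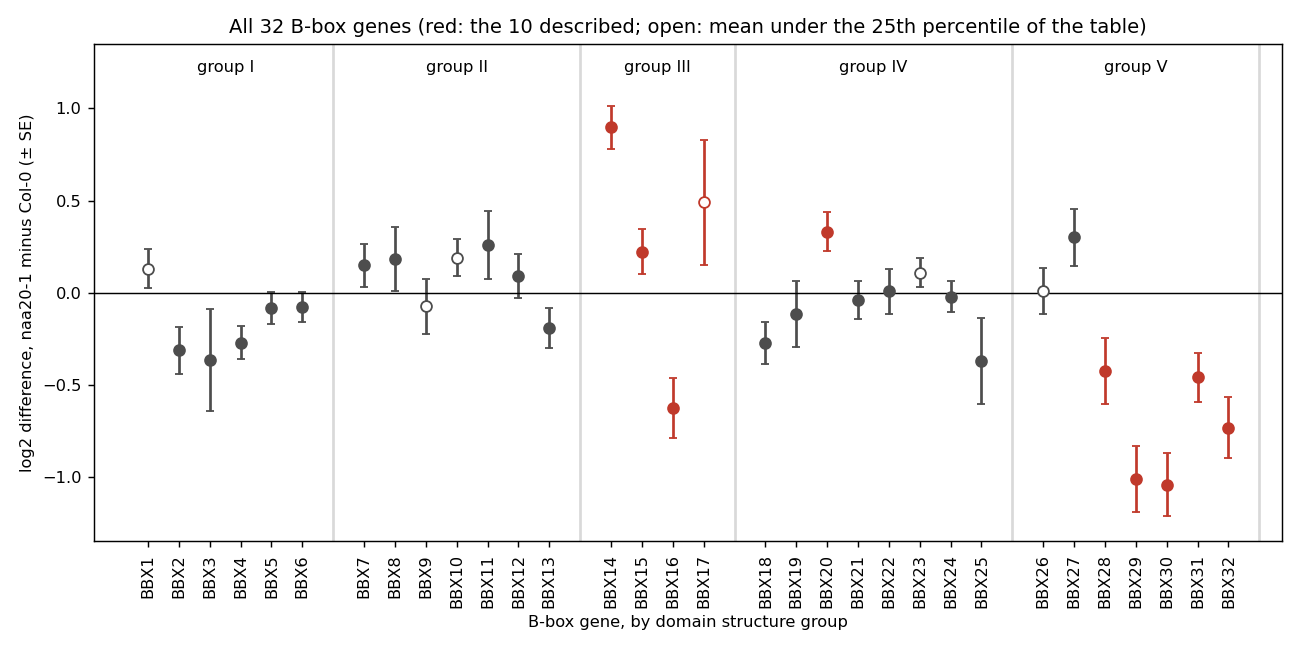
Log2 difference (naa20-1 minus Col-0) with its standard error for all 32 B-box genes in their structure groups, the 10 described in red and open points for probe sets whose mean lay below the table's 25th percentile. The 22 others lie between -0.37 and 0.30, and within group III BBX14 and BBX16 lie on opposite sides of 0.

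A list of 55 genes of light signalling was drawn up from the pathway, with earlier results of these data known. Of these, 1 was called higher, 0 were called lower and 6 had an unadjusted p under 0.05 (limma), with a median difference of -0.02. That is 1.82% called, beside 1.15% of all genes, and 14.2% of all genes had an unadjusted p under 0.05. The called gene was PIF1, a basic helix-loop-helix factor that phytochrome degrades in light and that represses seed germination. It stood at 8.32, 8.43 and 8.47 in Col-0 and at 9.13, 9.03 and 9.39 in naa20-1 (difference 0.77, SE 0.11, limma adjusted p = 0.0289). All mutant samples lay above all wild-type samples. Over the alternatives its adjusted p ran from 0.00172 to 0.109. It was called without naa20-1 replicate 3 (adjusted p = 0.0471) but not when any of the other 5 samples was left out, and not with the replicate number as a block (adjusted p = 0.0542).

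Among the other PIF and shade genes, PIL1, which shade induces, stood at 5.98, 6.21 and 5.63 in Col-0 and at 5.21, 4.73 and 4.92 in naa20-1. The groups did not overlap, and the difference of -0.99 (SE 0.18) did not pass the test (limma, adjusted p = 0.0534). PIF4, a promoter of elongation growth, differed by 0.45 (SE 0.08, limma adjusted p = 0.0535) with no overlap. The shade gene ATHB2 differed by -0.29 (SE 0.09, limma adjusted p = 0.210) with no overlap. PIF3 differed by 0.30 (SE 0.18) and PAR2 by -0.29 (SE 0.28), both with groups that overlapped. PIF5, PIF7, PIF8 and PAR1 differed by -0.01, 0.13, -0.02 and 0.06.

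None of the 13 photoreceptor genes was called in limma, and 0 had an unadjusted p under 0.05. The blue-light receptor gene CRY1 differed by 0.22 (SE 0.10, limma adjusted p = 0.382) and PHYB, for the main red-light receptor, by -0.14 (SE 0.08, limma adjusted p = 0.478). Of the 8 genes of COP1, its SPA partners and related factors, 0 were called and 0 had an unadjusted p under 0.05. DET1 and DDB1A had the smallest p there, with differences of 0.16 and -0.17.

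HY5, a known partner of BBX20, BBX28 and BBX29, read 7.38, 7.55 and 7.55 in Col-0 and 7.69, 7.50 and 7.62 in naa20-1. These groups overlapped, and the difference was 0.11 (SE 0.10, limma adjusted p = 0.665). Its homologue HYH differed by -0.17 (SE 0.10, limma adjusted p = 0.498), and HFR1, a factor that restrains the PIFs, by 0.40 (SE 0.13, limma adjusted p = 0.207).

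The chloroplast regulators GLK1 and GLK2 differed by -0.03 and -0.10, and GUN1, of the signalling from chloroplast to nucleus, by 0.13 (SE 0.08, limma adjusted p = 0.520). The corepressor genes TPL and TPR1 to TPR4 all had differences below 0, of which TPR3 had the smallest p (-0.24, SE 0.08, limma adjusted p = 0.253). FT, the flowering signal that the microprotein complex represses, lay below the table's 25th percentile in both groups, at 2.62 and 2.51.

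**Figure D3:**
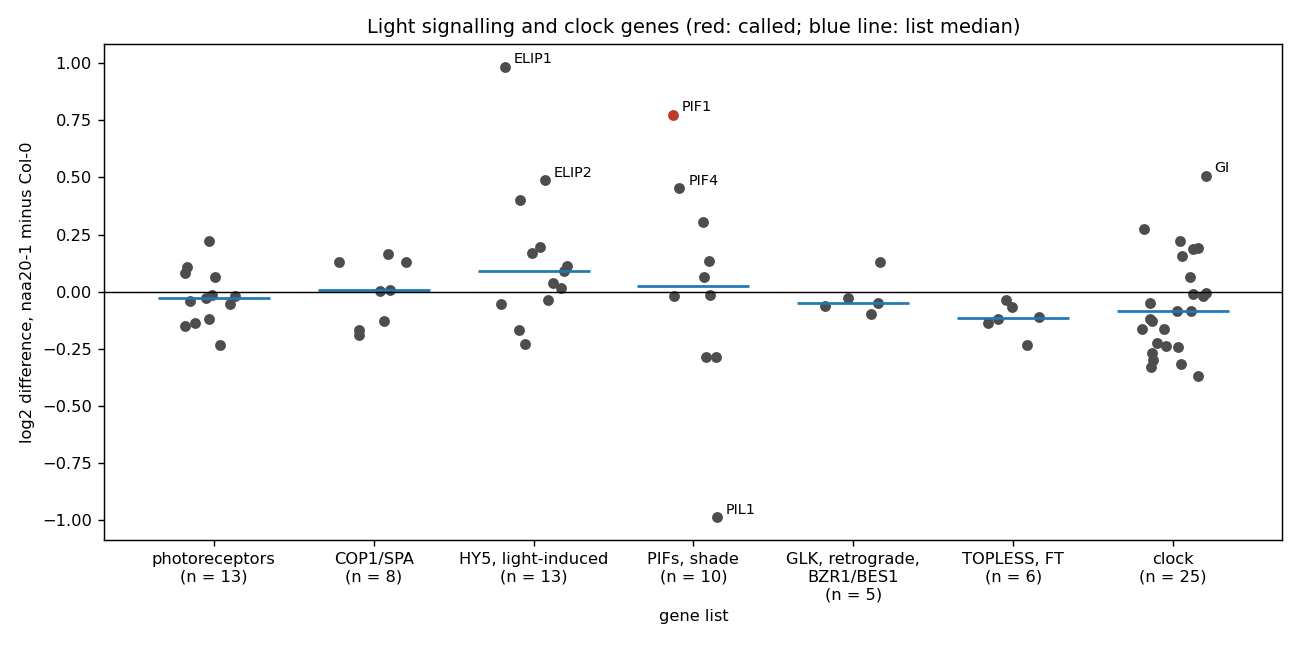
Log2 difference (naa20-1 minus Col-0) of 55 light signalling genes in 6 lists and of 25 clock genes, with the called gene in red and a blue line at each list's median. PIF1 is the one called gene, and PIL1 lies furthest below 0.

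Many B-box transcripts follow the time of day, so clock genes were read on the same arrays. None of 25 clock genes was called in limma, 4 had an unadjusted p under 0.05, and the median difference was -0.09. Over all genes 1.15% were called and 14.2% had an unadjusted p under 0.05. CDF5 and CDF3, repressors of CONSTANS, had the smallest p (-0.30 and -0.33, limma adjusted p = 0.193 and 0.222). By sample, however, 12 of the 25 lay more than 0.4 from the Col-0 mean in naa20-1 replicate 3, 2 in replicate 1 and 0 in replicate 2. That distance was chosen after the values were seen, and the share of all genes beyond it was not counted. The median absolute distance of the 25 was 0.19, 0.12 and 0.40 in replicates 1, 2 and 3, against 0.14, 0.14 and 0.16 for all genes.

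GI, an evening gene, lay 0.15, 0.18 and 1.19 above its Col-0 mean in naa20-1 replicates 1, 2 and 3. Other evening genes did not share this rise. In replicate 3 TOC1, PRR5, LUX and ELF3 lay at -0.36, -0.42, -0.07 and -0.05 from their Col-0 means. ELF4 lay at 0.27, 0.20 and 0.20 in replicates 1, 2 and 3. The signal of LUX and ELF4 was below the table's 25th percentile. The morning genes CCA1 and LHY lay at -0.42 and -0.30 from their Col-0 means in replicate 3. For CCA1 the other samples lay at -0.19 and -0.07, and for LHY at 0.01 and 0.03. RVE8, a morning activator of evening genes, lay at -0.04, -0.05 and -0.62.

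The light-induced chloroplast protein gene ELIP1 was at 7.40 and 7.44 in naa20-1 replicates 1 and 2 and at 9.42 in replicate 3, against 7.003 to 7.20 in Col-0. ELIP2 was at 7.43, 7.36 and 8.97, against 7.34 to 7.57 in Col-0. The part of the time of day, or of the light at harvest, in the size of the member differences was not tested.

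**Figure D4:**
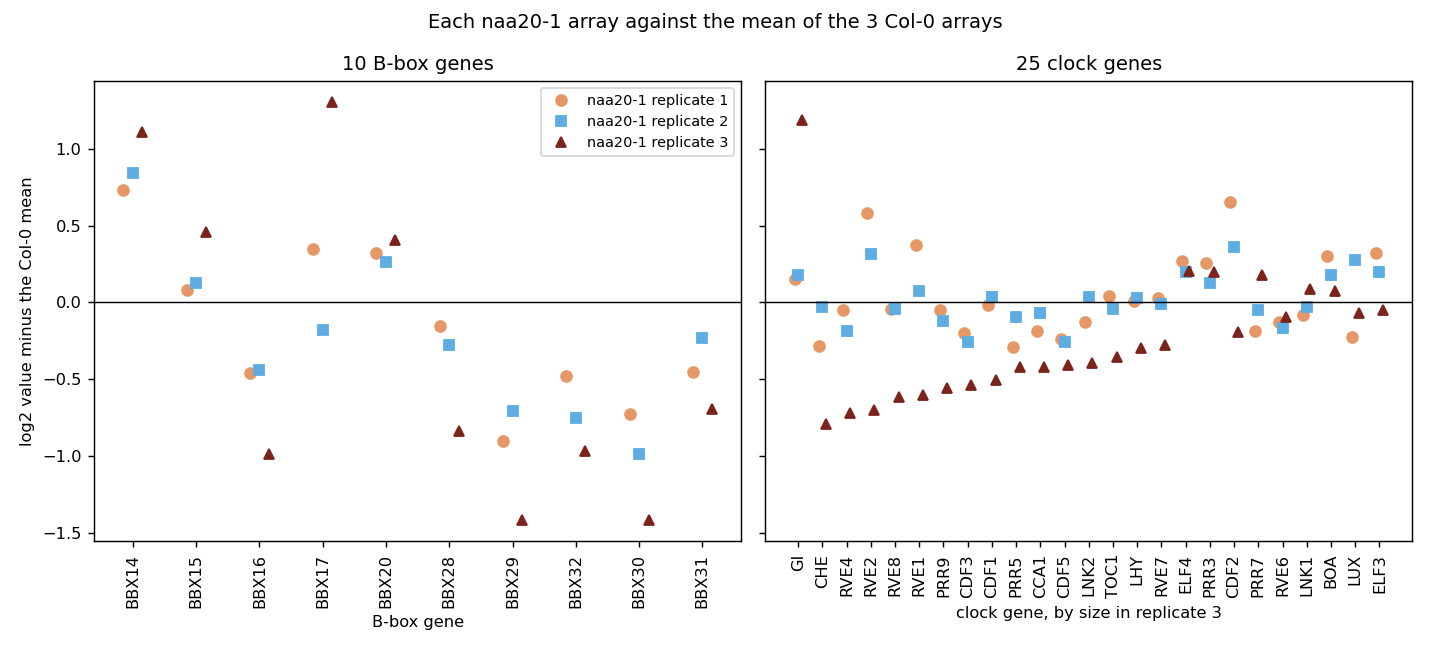
Log2 value of each naa20-1 array minus the mean of the 3 Col-0 arrays for the 10 B-box genes and for 25 clock genes, with colour and shape for the replicate. Replicate 3 is furthest from 0 in all 10 B-box genes and has 12 clock genes over 0.4 from 0.

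The labelled tissue was checked on marker genes. Transcripts of green leaf tissue were high on all arrays. The mean over 6 leaf markers was 11.44 to 11.47 in Col-0 and 11.31, 11.33 and 11.36 in naa20-1, so all mutant samples lay below all wild-type samples. None of the 6 was called in limma, 1 had an unadjusted p under 0.05 and 5 differences were below 0. LHCB1.3, of the light-harvesting proteins, differed by -0.22 (limma adjusted p = 0.268) and CA1, a carbonic anhydrase gene, by -0.17 (limma adjusted p = 0.407), both without overlap. Transcripts of root tissue were present as well. All 7 root markers (CASP1 to CASP5 of the endodermal Casparian strip, the aquaporin gene TIP2;3 and the cell wall gene PRP3) lay lower in naa20-1 without overlap, with differences from -0.98 to -0.40. None of the 7 was called in limma, and all 7 had an unadjusted p under 0.05. TIP2;3 differed by -0.69 with an adjusted p just above the threshold and CASP4 by -0.59 (limma adjusted p = 0.102). Over all genes 10.5% lay lower without overlap and 14.2% had an unadjusted p under 0.05. The markers were chosen with earlier results of these data known. The mean level of the 7 root markers was 7.95 to 8.02 in Col-0 and 7.55, 7.37 and 7.19 in naa20-1 replicates 1, 2 and 3. It was lowest in replicate 3, the mutant sample furthest from the Col-0 mean in all 10 members. Of the 7 markers, 5 lay furthest from Col-0 in replicate 3, while TIP2;3 and PRP3 did so in replicate 2. In RNA of whole seedlings, fewer cells of a type and less RNA per cell cannot be told apart, and the part of the root and leaf shares in the member differences was not tested.

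NAA20 (AT1G03150, assigned from general knowledge of the gene), the check of the labels, was lower in all 3 naa20-1 samples, at 8.10, 7.60 and 7.36 against 8.72 to 8.79 in Col-0. Values on the 6 arrays had the same median, 6.12, and mean correlations with the own group, taken across probe sets, were 0.993 to 0.995. Neither the array type nor the position of the probes is given in the sources used, so signal shared between related B-box genes cannot be assessed.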

How the data were processed

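The authors deposited log2 expression values made with RMA, per the submitters' processing notes. No source used here names the array type, how probe sets were defined or which software ran RMA. Of 27827 probe sets, 27241 carried a locus code found in the RefSeq gene table (assembly TAIR10.1), from which names and gene order were taken. The fit used limma 3.58.1 (lmFit, eBayes) under R 4.3.3, genotype as the only term, two-sided, with Benjamini-Hochberg adjustment over all of them. The procedure was tested on simulated data, with noise drawn independently for each gene and of equal spread in both groups. Real arrays need not meet that, so the rates may differ for these data. In the simulation the procedure recovered 18% of changes of 0.5 on the log2 scale, 68% of 1 and 90% of 1.5 and of 2. Of its 147 calls 14 were false. A gene with a small difference would thus seldom be called, and a count of 0 called does not show that genes are unchanged.

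The members and lists were chosen with earlier results of these data known. Named were all members, in each list the called genes or, where fewer than 2 were called, the 2 with the smallest p, the chromosomal neighbours, NAA20 and the genes most like BBX15 and BBX31. PIF4, HY5, GLK1, the ELIP genes and other genes beyond this rule were named after their values were seen. Structure groups follow common usage for the family.

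Deviations of same-numbered samples from their group means correlated at 0.03, 0.07 and 0.01 across genes, so the numbers were not taken to pair samples. Replicate numbers are those of the sample titles. The descriptions number the naa20-1 samples otherwise, and by those numbers the pairs correlated at 0.03 and -0.01. The replicate block rests on the titles. Alternatives were a repeated quantile normalization, median centring, removal of the dimmest 40% of probe sets, a variance trend with robust fit, adjustment over all probe sets, a block for the replicate number, each sample left out, and other summaries of the class contrast.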

Additional observations from a re-analysis of the deposited data

How the results depend on the processing

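All 10 member differences kept their sign and moved by less than 1 SD in 80 recomputed values, under a repeated normalization, median centring and the loss of each sample. The arrays were already equalised by quantiles, so the repeated normalization and the centring could hardly move the values. The SD is that within the groups, and BBX17 fell from 0.49 to 0.08 without naa20-1 replicate 3 inside it (SD 0.56). As the members were selected on these differences, the kept signs are a description. The contrast of CCT-domain members with microproteins ran from 0.73 to 1.15 when a sample was left out and was 1.11 with the median over the CCT-domain members. The 104 genes called higher and 209 lower became 311 and 486 with a variance trend and robust fit, and 61 and 129 with the replicate number as a block. The latter changed the call of BBX30 and PIF1. Leaving out a sample gave 11 to 63 higher and 51 to 134 lower, with 3 samples against 2. The 1 light signalling gene called became 3 without dim probe sets, 3 with the variance trend and 0 with the replicate block, and 0 to 1 when a sample was left out. With the variance trend 5 of the 10 members were called (BBX14, BBX16, BBX29, BBX30 and BBX32), while calls over all genes rose to the 311 and 486 above. Without dim probe sets, which left out BBX17, 3 members were called (BBX14, BBX29 and BBX30). Over all genes kept there, 151 were called higher and 276 lower. Since the members were selected on these differences, such counts are a description. The causes were not tested. The count called among other B-box genes and among clock genes stayed at 0 under the alternatives run. The median of the other B-box genes turned to 0.02 without naa20-1 replicate 3. Dim signal limits BBX17, CONSTANS and FT.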

Other observations

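The 20 nearest protein-coding genes beside the 10 members, by order in the reference gene table, included 0 called genes. BBX31 lies next to BBX10 and BBX30 next to BBX9, and both neighbours had signal under the 25th percentile of the table. BBX10 differed by 0.19 (SE 0.10) and BBX9 by -0.07 (SE 0.15), beside -0.46 for BBX31 and -1.04 for BBX30. The one neighbour near the threshold was AT4G27300, beside BBX28, at 7.07 in Col-0 and 6.59 in naa20-1.

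Among 13728 genes above the table's median, those whose values over the 6 arrays were most like BBX15 were AAE18, PHT2;1 and TTG2. Those most like BBX31 were MPK15, ATAF2 and NRP1. With 6 arrays and so many candidates, such likeness is a description of these samples.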
